A study of Homo sapiens with 6 samples.

Results

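The MYC and MAX-binding partner network is the set of 8 genes MYC, MYCN, MAX, MXD1, MXD3, MXD4, MXI1 and MNT, followed here through a course of TGF-beta with or without an siRNA to HNF4A. A gene's members on the array were probe sets that the platform annotation pairs with that symbol alone, and the brightest of them, by its mean over the 6 arrays, stood for the gene. Of the 19775 genes so named, 7 were members of the network. MXD4 had no probe set with its symbol alone and is named only. Of the 7, 6 exceeded the floor described below and were tested, and MYCN did not.

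The cells were HepG2, an established human hepatoblastoma line that keeps many features of hepatocytes. All of them had been transfected with siRNA, short double-stranded RNA that lowers a matching transcript, either a control (siControl) or one against HNF4A (siHNF4A), a nuclear receptor of liver cells. They then received TGF-beta, a cytokine that signals through Smad proteins, at 3 ng/ml for 1.5 or 24 h, or none (0 h). There are 6 combinations and 6 Affymetrix arrays, 1 for each, and hence no replicates. No untreated array at 1.5 or 24 h was used here, so TGF-beta and time in culture cannot be told apart. Whether the 3 arrays of an arm came from 1 transfection or several is not given in the labels.

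MYC is a basic helix-loop-helix leucine zipper transcription factor that drives growth and proliferation, and MYCN is its paralogue of neural and embryonic tissue. Neither binds DNA efficiently alone: each pairs with MAX, and the dimer binds E-box sequences and recruits coactivators. MXD1, MXI1, MXD3, MXD4 and MNT pair with MAX on the same sequences but recruit the SIN3 and histone deacetylase corepressor. In epithelial cells a decline of MYC is a classical early event of the TGF-beta growth arrest, attributed to a Smad complex with E2F4 and the pocket protein p107 (RBL1).

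Values are MAS5 signals, scaled intensities on a linear scale. Signals below 12.9, the median of all signals, were set to that floor before log2 was taken. A difference is in log2 units, given with the standard error (SE) and 95% interval from limma, and it is siHNF4A minus siControl or later minus earlier. A difference passed at a Benjamini-Hochberg adjusted p under 0.05 over 11921 genes. The error term comes from how far the 3 times disagree on the siRNA and the 2 arms on the times, with 2 residual and 12.6 prior degrees of freedom, and so rests largely on limma's prior. The array medians were 12.4 to 13.3. Of the control probe sets, those of GAPDH and ACTB and the 5′ end of AFFX-HUMRGE were read. The siControl 0 h array stood apart in the last, with 8600 against 69.8 to 736.5 elsewhere. It also had the lowest 3′ to 5′ ratio of GAPDH, 0.888 against 0.946 to 0.977. The fits were therefore also run without the siControl 0 h array. All 10 hepatocyte and hepatoblastoma markers were above the floor on every array, with a summed signal of 50525 to 59200. Of them FGB, a fibrinogen chain, rose with the siRNA by 0.74 and fell at 24 h by 0.65, TTR, a hormone carrier, fell by 0.52 and 0.54, and SERPINA1, a protease inhibitor, rose at 24 h by 0.34 (0.31 and not called with the siControl 0 h array omitted). Their part in the members' results was not tested. Of 10 measured blood, endothelial and fibroblast markers 2 to 4 were above the floor on an array, with a summed signal of 116.0 to 237.6 and none at 0. The blood marker PTPRC and the endothelial markers VWF, CDH5 and KDR lay under the floor on all 6 arrays. PECAM1, an endothelial marker of 47.0 to 127.2, rose at 24 h by 1.01 ± 0.27, and without the siControl 0 h array it had 0.54 and did not pass. Its part in the 24 h results was not tested. The siRNA labels are taken as given, since the level of the targeted transcript is not reported.

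MYC was the member that moved first. Its siControl signal read 1773 before TGF-beta, 857 at 1.5 h and 1422 at 24 h. In siHNF4A it was 2140, 1206 and 2797 at the same times. The 1.5 h array was the lowest of its arm in both arms, and the siHNF4A array was the higher of the pair at all 3 times. The 24 h arrays lay on opposite sides of their own 0 h array, below it in siControl and above it in siHNF4A.

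In RNA of whole cultures, fewer cells of a kind and less transcript per cell cannot be told apart. At 1.5 h MYC was lower by a log2 difference of 1.05 in siControl and 0.83 in siHNF4A. Over both arms it fell by 0.94 ± 0.14 (SE, interval -1.25 to -0.63, limma adjusted p = 0.0141), a 1.92-fold decline in 2 of 2 arms. It was the single member of 6 to pass, where 12 of all genes tested (0.101%) passed, 0.0839% by rising and 0.0168% by falling. Without the siControl 0 h array MYC fell by 0.71 and still passed (adjusted p = 0.0325). It did not pass when eBayes was run without an intensity trend, when dim genes were kept or when probe sets were averaged, with an adjusted p of 1 each time, though the difference was the same -0.94.

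Between 1.5 and 24 h MYC rose again, by a log2 difference of 0.73 in siControl and 1.21 in siHNF4A. The mean was 0.97 ± 0.14 (interval 0.66 to 1.28, limma adjusted p = 0.000465), a 1.96-fold rise. MXD1 also passed in that comparison (below), so 2 of 6 members rose and none fell, against 13.4% of all genes that passed, 6.4% by rising and 7.01% by falling. At 24 h against 0 h MYC differed by 0.03 ± 0.14 (interval -0.28 to 0.34, adjusted p = 0.912). That mean joins -0.32 in siControl with 0.39 in siHNF4A.

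**Figure D1:**
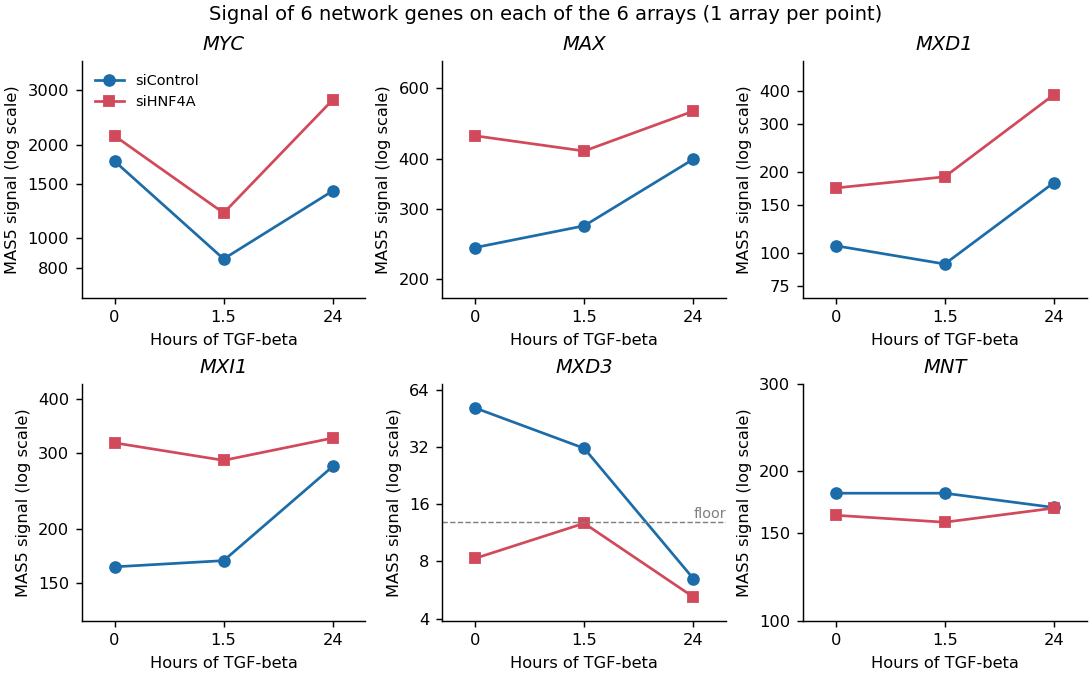
MAS5 signal (log scale) of the 6 tested members against hours of TGF-beta, each point 1 array, for siControl (circles) and siHNF4A (squares); the dashed line in the MXD3 panel is the floor of 12.9. MYC is lowest at 1.5 h in both arms, MXD1 is highest at 24 h in both, and MNT stays between 158 and 181.

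With siHNF4A, MYC was higher by 0.27 at 0 h, 0.49 at 1.5 h and 0.98 at 24 h. The mean over the 3 times was 0.58 ± 0.12 (interval 0.33 to 0.83, limma adjusted p = 0.00701), or 1.49-fold, higher in 3 of 3 pairs of arrays. Without the 24 h pair it was 0.38 and did not pass (adjusted p = 0.19), and without the siControl 0 h array it was 0.73 and passed. The siRNA difference at 24 h exceeded its mean at 0 and 1.5 h by 0.59 ± 0.21. This did not pass in a fit with 1 residual degree of freedom (limma adjusted p = 0.999, unadjusted p = 0.0199). No gene of 11921 (0%) passed in that fit, and 541 had an unadjusted p under 0.05. In simulated data that fit found 14% of 2-fold changes. It therefore cannot decide whether the siRNA difference of MYC depended on time.

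MAX, the partner shared by all the other members, also rose with siHNF4A. In the order of the times it read 240, 272 and 399 in siControl and 457, 418 and 526 in siHNF4A. Every siHNF4A array was above every siControl array. The siRNA difference was 0.93, 0.62 and 0.40 at the 3 times, with a mean of 0.65 ± 0.13 (interval 0.36 to 0.93, limma adjusted p = 0.00765). The difference from 0 h at 24 h was 0.73 in siControl and 0.20 in siHNF4A, with a mean of 0.47 ± 0.16 that did not pass (limma adjusted p = 0.0712). It was 0.26 without the siControl 0 h array. At 1.5 h the mean was 0.03 (interval -0.32 to 0.38).

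The 5 MAX probe sets did not give 1 answer. Their mean siRNA differences were 0.65 for 209332_s_at, described above, 0.50 for 210734_x_at, 0.20 for 209331_s_at, 0.05 for 208403_x_at and -0.07 for 214108_at. The last had a mean signal of 13.2 and lay above the floor on 3 arrays. With the probe sets averaged, MAX had 0.27 (limma adjusted p = 0.204).

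Of the repressor partners, MXD1 had the largest difference that passed. Its signals in time order were 106, 90.8 and 182 in siControl, and 174, 192 and 387 in siHNF4A. The siHNF4A array was the higher at all 3 times, and the 24 h array was the highest of each arm. With the siRNA MXD1 was higher by 0.71, 1.08 and 1.09 at 0, 1.5 and 24 h. The mean was 0.96 ± 0.16 (interval 0.62 to 1.3, limma adjusted p = 0.00165), or 1.94-fold, and it was the sole member to pass with the probe sets averaged. The other MXD1 probe sets, 206877_at and 226275_at, had mean siRNA differences of 0.81 and 0.55, higher at each time.

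MXD1 was the 1 member of 6 that rose between 0 and 24 h, against 7.22% of all genes that rose. Its difference was 0.78 in siControl and 1.15 in siHNF4A, with a mean of 0.96 ± 0.19 (interval 0.55 to 1.38, limma adjusted p = 0.00371). At 1.5 h it differed by -0.23 and 0.14 (mean -0.04, interval -0.46 to 0.37), and from 1.5 to 24 h it rose by 1.01 ± 0.19 (adjusted p = 0.00297). The 24 h rise belongs to probe set 228846_at. The others had mean differences from 0 h of 0.15 and 0.25, and the average of the 3 probe sets was 0.45 and did not pass (adjusted p = 0.102).

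MXI1, a repressor partner close to MXD1, read 163, 169 and 279 in time order in siControl on its 1 probe set. In siHNF4A it read 316, 288 and 324, so every siHNF4A array was above every siControl array. The siRNA difference was 0.95, 0.77 and 0.22, with a mean of 0.65 ± 0.16 (interval 0.31 to 0.99, limma adjusted p = 0.0199). Without the siControl 0 h array the mean was 0.50 and did not pass (adjusted p = 0.102), nor did it without the 1.5 h pair (0.59, adjusted p = 0.105). In siControl MXI1 was 0.77 higher at 24 h than at 0 h, and in siHNF4A 0.04 higher. The mean of 0.41 ± 0.19 did not pass (limma adjusted p = 0.19), and it was 0.17 without the siControl 0 h array.

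The siRNA comparison thus called MYC, MAX, MXD1 and MXI1, 4 of 6 members higher and none lower. Among all genes tested 8.06% were called, 3.9% higher and 4.16% lower. The median difference of the 6 members was 0.61, against -0.04 for all genes. Without the 24 h pair MYC, MAX (0.77, adjusted p = 0.0547) and MXD1 (0.90, adjusted p = 0.082) did not pass, MXI1 (0.86) did, and MXD3 was then called lower. That MXD3 call carries no weight, because of how the gene came to be tested (below). None of the 6 passed without the intensity trend or with dim genes kept, where the differences themselves were the same.

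**Figure D2:**
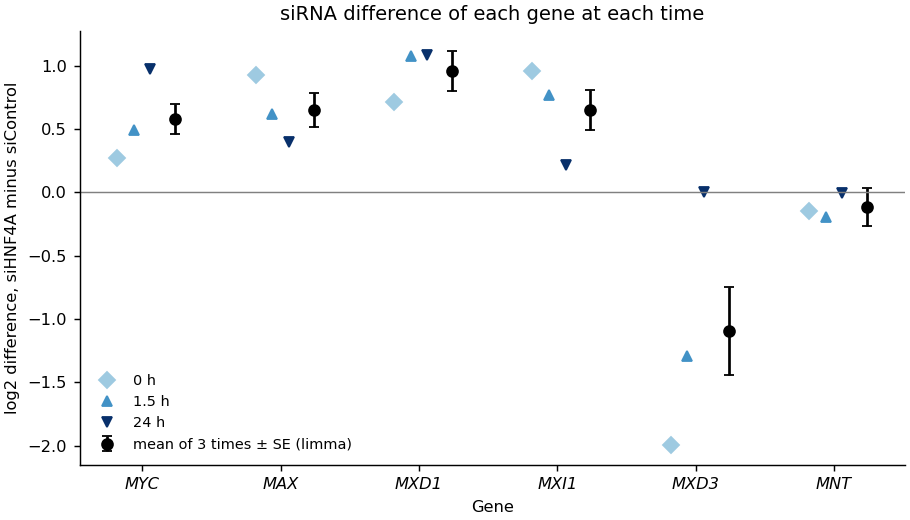
Difference in log2 signal, siHNF4A minus siControl, for the 6 tested members at 0 h (diamonds), 1.5 h (upward triangles) and 24 h (downward triangles), with the mean over times and its limma SE (circles with bars). The differences of MYC run from 0.27 at 0 h to 0.98 at 24 h, and those of MXI1 from 0.95 to 0.22; the MXD3 values use signals set to the floor.

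The sequences before transcription starts of MXD1, MXI1 and MNT are shown with the matches marked below. They are a selection, made with the results of these data known. The starts of MXD4, MYCN and MXI1 that hold other matches, given below, are not shown. MXD1 and MXI1 were called higher with siHNF4A, and so were MYC and MAX, which are not shown. The display is therefore no test of a link between sequence and response. Each sequence is the 250 bases before the start in RefSeq's promoter table, build GRCh38.p14, 5′ to 3′ on the gene's strand. MXD1 has 1 start in the table, at chr2:69914859-69915108 (plus strand), and MNT has 1, at chr17:2401061-2401310 (minus strand). MXI1 has 3 starts, of which the one with the marked match, chr10:110225746-110225995 (plus strand), is shown. Which start the MXI1 probe set reports was not tested. Capitals mark GGACTTTG in MXD1 and CAAAGTCC, its reverse complement, in MXI1, and the E-box CACGTG in MNT.
MXD1: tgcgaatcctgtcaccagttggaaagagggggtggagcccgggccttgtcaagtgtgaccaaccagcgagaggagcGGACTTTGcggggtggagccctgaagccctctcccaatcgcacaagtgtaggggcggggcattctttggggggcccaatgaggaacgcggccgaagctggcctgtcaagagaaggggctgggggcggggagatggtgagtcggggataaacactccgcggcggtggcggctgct
MXI1: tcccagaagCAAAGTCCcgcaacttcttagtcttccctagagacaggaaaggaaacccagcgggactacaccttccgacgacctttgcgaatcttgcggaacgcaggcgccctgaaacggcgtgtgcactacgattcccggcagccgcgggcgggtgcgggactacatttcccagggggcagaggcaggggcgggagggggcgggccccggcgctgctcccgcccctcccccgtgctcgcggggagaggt
MNT: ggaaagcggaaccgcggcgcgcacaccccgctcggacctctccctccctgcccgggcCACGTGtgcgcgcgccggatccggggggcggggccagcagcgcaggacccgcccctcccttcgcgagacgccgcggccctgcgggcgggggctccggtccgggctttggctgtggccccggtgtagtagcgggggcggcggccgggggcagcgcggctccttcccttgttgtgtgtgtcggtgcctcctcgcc

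CAAAGTCC is the first 8 letters of CAAAGTCCA, a sequence bound by HNF4 receptors. The shorter form was chosen after these promoters had been read. On either strand it occurred in 1.02% of the 35116 windows of that length in the table, and among the member starts searched in those 2. The 10 starts searched were those of MYCN, MAX, MXD1, MXD3, MXD4, MXI1 and MNT, and that of MYC was not searched. The match lay 174 to 167 bases before the start in MXD1 and 241 to 234 bases before it in MXI1. CAAAGTCCA itself occurred in 0.325% of all windows and in none of those 10. The E-box CACGTG, which reads the same on both strands, occurred in 6.34% of windows, among them those of MNT (193 to 188 bases before the start) and MXD4 (238 to 233). The Smad-type sequence CAGACA, on either strand, occurred in 13.6% of windows and in those of MYCN and another MXI1 start. These are matches of letters, and binding was not measured.

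MXD3, a repressor partner linked to dividing cells, was measured by 1 dim probe set. Its signals in time order were 51.4, 31.5 and 6.5 in siControl, and 8.3, 12.7 and 5.2 in siHNF4A. The siControl arrays at 0 and 1.5 h were above the floor, and the other 4 were under it. Its mean signal of 19.3 exceeded the floor only through those siControl arrays, so MXD3 was tested only because they were high. A lower value with siHNF4A and at 24 h was thereby built in, and the tests below cannot decide on either. With the floor applied, the MXD3 difference was -1.99 or lower at 0 h and -1.29 or lower at 1.5 h, and at 24 h none could be measured. The mean of -1.09 ± 0.35 did not pass (limma adjusted p = 0.0705), and it moved with the arrays used. It was -1.64 and passed without the 24 h pair (adjusted p = 0.0332), and when the siControl 0 h array was omitted it was -0.64 and missed the threshold (adjusted p = 0.413). In siControl the difference between 24 and 0 h was -1.99 or lower, and the mean over both arms of -0.997 ± 0.43 did not pass (adjusted p = 0.142). That mean was -0.32 without the siControl 0 h array.

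MNT, the broadly expressed repressor partner, varied least. In time order it read 181, 181 and 169 in siControl, and 163, 158 and 169 in siHNF4A. The siRNA difference was -0.11 ± 0.15 (interval -0.44 to 0.21, limma adjusted p = 0.733), and the difference from 0 h was -0.02 at 1.5 h (interval -0.42 to 0.38) and -0.02 at 24 h (interval -0.42 to 0.37). Its other probe set, 236749_at, had a mean signal of 11.7. MYCN had 10 probe sets, and 1 of their 60 signals was above the floor. This was 16.5 in siHNF4A at 24 h on 242026_at, so no difference was given for MYCN.

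**Figure D3:**
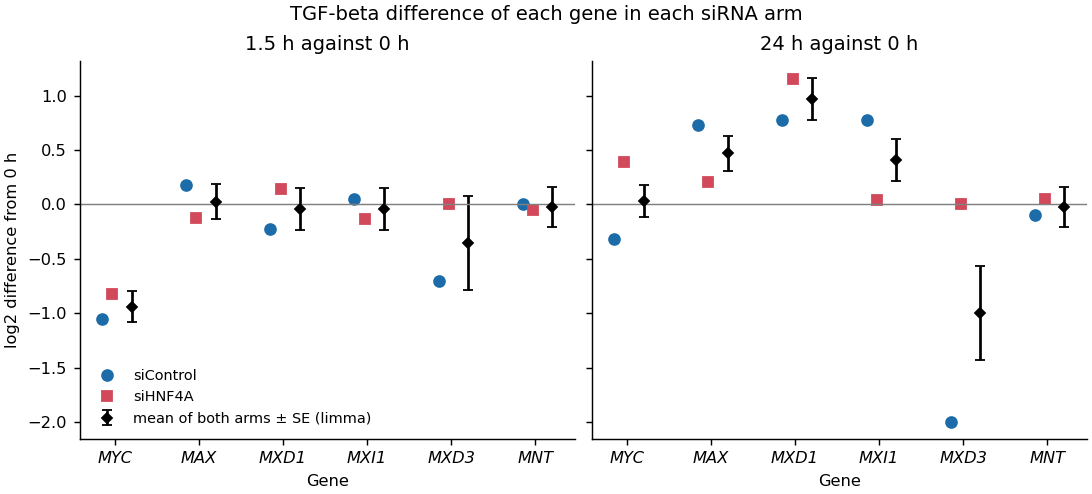
Difference in log2 signal from 0 h at 1.5 h (left) and 24 h (right) for the 6 tested members in siControl (circles) and siHNF4A (squares), 1 pair of arrays per point, with the mean of both arms and its limma SE (diamonds with bars). At 1.5 h MYC lies at -1.05 and -0.83; at 24 h MXD1 lies at 0.78 and 1.15, and MYC at -0.32 and 0.39.

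The ratio of a partner to MYC within an array does not depend on the scaling of that array. Relative to 0 h, the log2 ratio of MXD1 to MYC was higher by 0.82 at 1.5 h and 1.10 at 24 h in siControl, and by 0.96 and 0.77 in siHNF4A. These are values of 228846_at. At 24 h in siHNF4A the other MXD1 probe sets differed from 0 h by 0.26 and 0.37, below the 0.39 of MYC, so on them the ratio was not higher there. For MXI1 to MYC the changes were 1.10 and 1.09 in siControl but 0.69 and -0.35 in siHNF4A. For MAX to MYC they were 1.23 and 1.05 in siControl and 0.70 and -0.18 in siHNF4A. For MNT, itself nearly level, they were 1.05 and 0.22 in siControl and 0.78 and -0.34 in siHNF4A. At 24 h the ratios of MXI1, MAX and MNT to MYC were all above their 0 h value in siControl and below it in siHNF4A, a difference between arms that was not tested. These ratios share the MYC signal, which at 24 h differed from 0 h by -0.32 in siControl and 0.39 in siHNF4A. They are therefore not independent of each other. Ratios carry no SE here, since each is from single arrays.

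The remainder of the network was read from fixed lists. Of the MLX arm and MGA, which pair with MLX or MAX on E-boxes, 4 of 4 were tested, none passed for the siRNA and 2 fell at 24 h against 0 h, where 15% of all genes passed, 7.22% by rising and 7.82% by falling. MLXIPL, the glucose-responsive factor ChREBP, read 33.1, 43.3 and 11.5 in siControl and 38.5, 34.7 and 16.9 in siHNF4A. It fell by 1.27 ± 0.32 with the lowest signal set to the floor (limma adjusted p = 0.0153), and with the floor at 22.6 it had -0.66 and did not pass. MGA, a MAX partner, fell by 0.74 ± 0.23 and was not called once the siControl 0 h array was left out (-0.67). Among 10 coactivators 2 fell at 24 h (7.82% of all genes fell) and none rose, the helicase RUVBL2 (-0.38 ± 0.12) and the adaptor WDR5 (-0.60 ± 0.19). Both lost the call when the siControl 0 h array was left out (-0.40 and -0.53). Among the 10 tested genes of the SIN3 corepressor and of MIZ1, through which MYC represses genes, none passed in any of the 5 comparisons.

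Of 11 genes that act on the MYC protein, 4 fell at 24 h and none rose, where 7.82% of all genes fell. The count was 2 without the siControl 0 h array, and 1 with averaged probe sets or without the trend. SKP2, a ubiquitin ligase subunit that acts on MYC, fell by 1.90 ± 0.16. Its 24 h signals of 206 in siControl and 155 in siHNF4A compare with 683 and 653 at 0 h. The kinase AURKA, which stabilises MYCN, fell by 0.87 ± 0.13, and it also fell with the siRNA, by 0.47 ± 0.10. AURKA had -0.02 at 24 h and -0.27 for the siRNA, neither of which passed, on the probe set that remains once the _x_at and _s_at types are dropped. CIP2A (-0.81 ± 0.25) and the deubiquitinase gene USP7 (-0.46 ± 0.12) were the others, and these lost the call without the siControl 0 h array (-0.86 and -0.47). Of 8 genes of the Smad and E2F4 complex held to repress MYC, none passed at 1.5 h, when 0.101% of all genes did. TFDP1, the dimer partner of E2F proteins, fell with siHNF4A by 1.17 ± 0.11, and RBL1 fell at 24 h by 1.11 ± 0.27. Each was 1 of 8 in its comparison, where 4.16% of all genes fell with the siRNA and 7.82% at 24 h. RBL1 lost the call without the trend.

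MYC's targets were read in a list of activated and a list of repressed genes. None of the 21 activated or 9 repressed targets tested passed at 1.5 h, when MYC was at its lowest and 0.101% of all genes passed. Their medians were 0.09 and 0.05 against -0.01 for all genes. At 24 h against 0 h 4 of the 21 activated targets fell and 1 rose (15% of all genes passed in either direction, 7.82% by falling), and 8 fell after quantile normalization and 1 without the trend. SRM, which makes spermidine, fell by 1.04 ± 0.15. It read 580 at 0 h and 299 at 24 h in siControl, and 700 and 323 in siHNF4A. The nucleolar protein gene NOP58 fell by 0.84 ± 0.11, the kinase CDK4 by 0.48 ± 0.12 and ODC1, the first enzyme of polyamine synthesis, by 0.45 ± 0.10. CCND2, which encodes cyclin D2, rose by 1.08 ± 0.24, with 54.5 and 98.1 in siControl and 82.7 and 204 in siHNF4A. No activated target was called as rising at 24 h with averaged probe sets, without _x_at and _s_at probe sets or without the trend. From 1.5 to 24 h, while MYC rose, 7 of the 21 fell and 1 rose, where 7.01% of all genes fell and 6.4% rose. ODC1 fell by 0.64 ± 0.10. The 7 became 4 with averaged probe sets and 1 without the trend. The median was -0.27, against -0.01 for all genes.

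With siHNF4A 2 of the 21 activated targets rose and none fell, CCND2 (0.69 ± 0.20) and ODC1 (0.31 ± 0.08), where 3.9% of all genes rose. Both lost the call when the siControl 0 h array was left out (0.74 and 0.29), and CCND2 had 0.08 with averaged probe sets. The median of the 21 was 0.06, against -0.04 for all genes.

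Of 9 repressed targets tested, 3 rose with siHNF4A and none fell, where 3.9% of all genes rose. The 3 became 1 with averaged probe sets and 0 without the trend. CDKN2B, which encodes the CDK inhibitor p15, rose by 1.10 ± 0.20, and CDKN1B, which encodes p27, rose by 0.74 ± 0.10. The matrix glycoprotein gene THBS1 rose by 0.98 ± 0.10. At 24 h 4 rose and 2 fell, where 7.22% of all genes rose and 7.82% fell. The 4 became 1 without _x_at and _s_at probe sets, and 3 with averaged probe sets or without the trend. The 2 became 1 in each of these settings. CDKN2B rose by 2.57 ± 0.25, with 24.2 at 0 h and 148 at 24 h in siControl and 60 and 344 in siHNF4A. The stress gene NDRG1 rose by 1.54 ± 0.19, THBS1 by 1.05 ± 0.12 and CDKN1A, which encodes the CDK inhibitor p21, by 0.72 ± 0.15. CEBPA, a liver transcription factor, fell by 1.40 ± 0.16, and NDRG2, a relative of NDRG1, fell by 0.74 ± 0.21. On its probe set of neither the _x_at nor the _s_at type, THBS1 had 0.21 at 24 h and did not pass. The lists are textbook sets and not independent of the earlier results of these data.

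**Figure D4:**
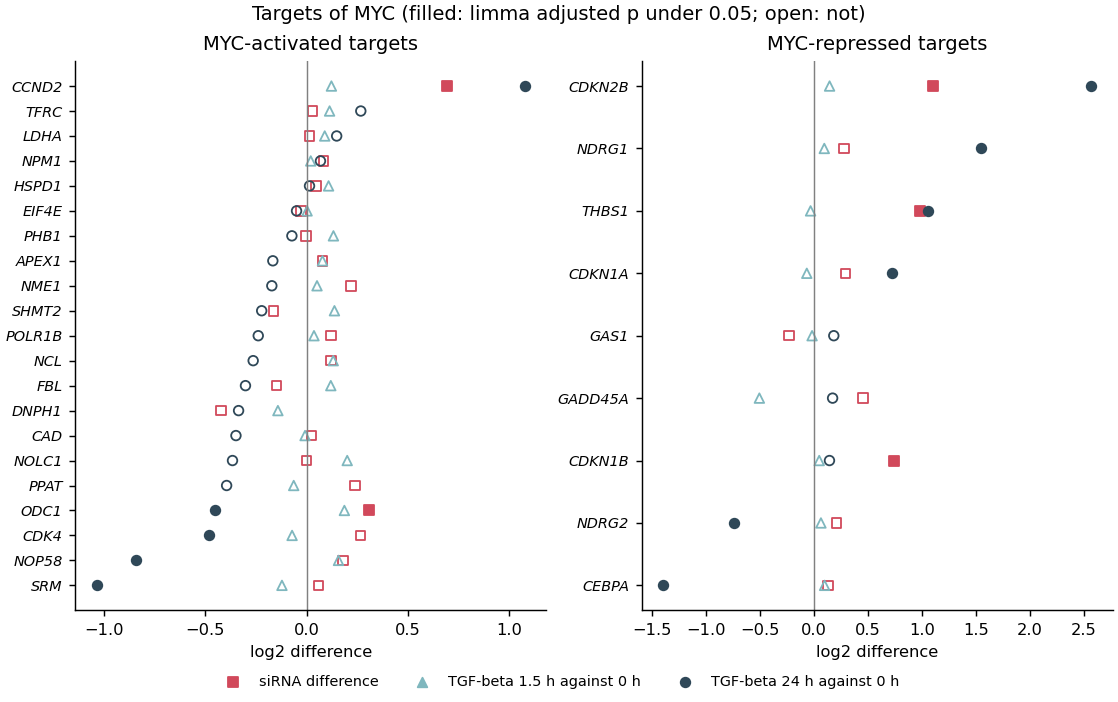
Difference in log2 signal of the 21 MYC-activated (left) and 9 MYC-repressed (right) targets for the siRNA (squares), TGF-beta at 1.5 h (triangles) and at 24 h (circles) against 0 h; filled symbols passed in limma. No triangle is filled, and at 24 h SRM lies lowest and CCND2 highest among activated targets.

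The pattern of MYC over the 6 arrays was compared with 2551 genes that were above the floor on every array and spanned at least 1 log2 unit. The highest Pearson r were 0.97 for the corepressor gene TLE3, 0.96 for the clotting factor gene F12, 0.94 for the polarity gene LIN7A, 0.94 for LOC101928505 and 0.93 for LTBP1, which encodes a latent TGF-beta binding protein. TLE3 read 39.7, 27.5 and 42.0 in siControl and 47.5, 33.9 and 62.1 in siHNF4A, lowest at 1.5 h in each arm. The lowest r were -0.95 for TAPT1-AS1, -0.94 for ARHGAP27, -0.94 for the stress sensor ATF6, -0.91 for SFXN5 and -0.91 for CEP162. ATF6 read 125, 192 and 168 in siControl and 132, 182 and 92.2 in siHNF4A. Several of these genes were dim, not far above the floor of 12.9. F12 read 21.1 to 45.6, LOC101928505 15.7 to 32.2 and LTBP1 18.6 to 40.8. TAPT1-AS1 read 13.6 to 32.7 and CEP162 16.9 to 37.6, while LIN7A was brighter at 299 to 617. The correlations are descriptions over 6 arrays that share siRNA and time, picked as the extremes of many genes.

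**Figure D5:**
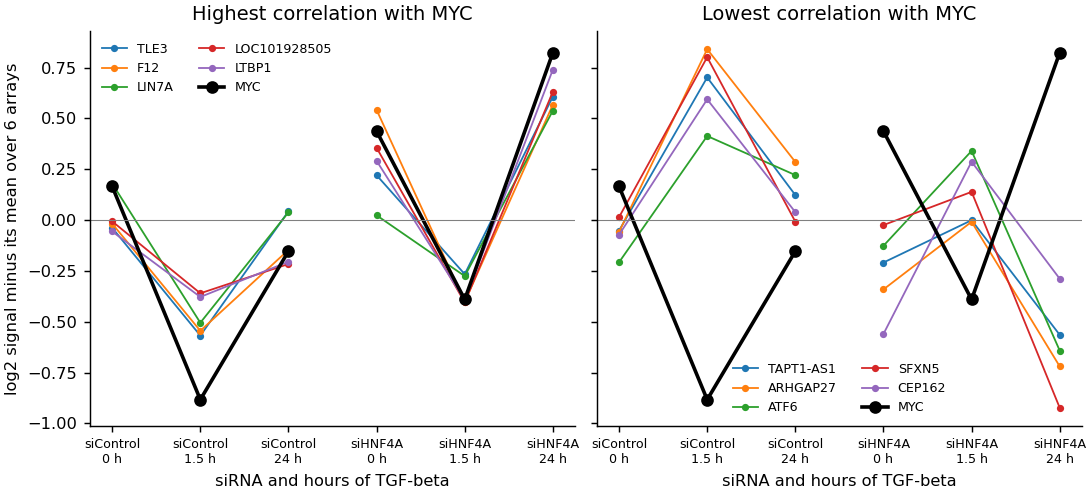
Signal (log2, minus each gene's mean over the 6 arrays) of the 5 genes with the highest (left) and lowest (right) Pearson r with MYC (thick black line), by siRNA and hours of TGF-beta, lines joining arrays of 1 arm. The left genes share the low 1.5 h arrays of MYC, and ATF6 on the right reads 192 and 182 there.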

How the data were processed

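Total RNA of 6 samples, 1 per siRNA and time, was hybridised to Affymetrix arrays, per the labels. The deposited intensity values are linear MAS5 signals; the submitters' processing notes name MAS5 5.0 and GCOS. Each array's mean, trimmed by 2% at both ends, was 99.98 to 99.99. Detection calls were not used here, so the floor stands in for background, and the number of arrays limits precision.

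Of 54675 probe sets, 41097 had 1 gene symbol in the platform annotation table (41043 of them found in RefSeq's gene table), 1801 several (not named) and 11777 none. Genes with a mean signal above the floor entered limma 3.58.1 in R 4.3.3 (lmFit, eBayes with an intensity trend), with terms for siRNA and time; a further fit added an siRNA by 24 h term. A dependence of one factor on the other counts as error. The code was tested on simulated data.

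The members, lists and tests were chosen with earlier results of these data known. Named were the members, up to 4 passing genes per list and comparison with the largest differences, and the 5 genes most like and most opposite to MYC. Alternatives were quantile normalization, median scaling, floors of 8.3 and 22.6, a pseudocount equal to the floor, averaged probe sets, no _x_at or _s_at probe sets, dim genes kept, no trend, and the omission of each time or of the siControl 0 h array. They were extended to the lists after seeing the data. HNF4A is not reported here. Figures used matplotlib 3.10.9.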

Additional observations from a re-analysis of the deposited data

Results flagged for a closer look

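MYC differed from 0 h in opposite directions at 24 h, by -0.32 in siControl and 0.39 in siHNF4A. The nearest test set the siRNA difference at 24 h against that at the earlier times. This test found 14% of 2-fold changes in simulated data, so a failure to pass does not decide the question. It gave 0.59 ± 0.21 and did not pass (limma adjusted p = 0.999). MNT had opposite signs at 24 h too, -0.10 in siControl and 0.048 in siHNF4A, and the same test gave 0.17 (limma adjusted p = 0.999).

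At 1.5 h 3 members had opposite signs in the arms. MAX had 0.18 in siControl and -0.13 in siHNF4A, MXD1 had -0.23 and 0.14, and MXI1 had 0.048 and -0.14. These differences between arms at 1.5 h were not tested. Each difference from 0 h within an arm given here compares single arrays, and all but those of MYC are below 0.25 in size.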

How the results depend on the processing

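No paired analysis was possible because each group has 1 array and the labels give no replicate numbers to block on; the fit itself compares the arms within each time. Of 315 values of tested members under an alternative, 270 kept their direction and side of the threshold, 26 lost a call, 1 gained one (MXD3 for the siRNA without the 24 h pair) and 18 changed sign. Of these only MAX for the siRNA (-0.066), without _x_at and _s_at probe sets, had been called. A probe set near the floor then stood for it. So chosen, MAX also had -0.088 at 1.5 h, -0.28 at 24 h, -0.19 from 1.5 to 24 h and 0.10 for the siRNA difference at 24 h against earlier times. With averaged probe sets MNT had 0.038 (siRNA), 0.13 (1.5 h) and -0.06 (siRNA at 24 h against earlier), and MXD1 had 0.075 (1.5 h). After quantile normalization MYC had -0.03 at 24 h, and MNT had 0.003 at 1.5 h, 0.011 at 24 h and 0.007 from 1.5 to 24 h. Without the siControl 0 h array the 1.5 h differences were -0.18 for MAX, 0.14 for MXD1, 0.32 for MXD3 and 0.001 for MNT, and MNT had 0 at 24 h.

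The 4 members called for the siRNA became 1 with averaged probe sets, 2 without _x_at and _s_at probe sets (MYC has no other), 0 with dim genes kept, 0 without the trend and 2 without the 24 h pair. MYC's 0.58 then had adjusted p-values of 0.111 with averaged probe sets, 0.498 with dim genes kept and 0.175 without the trend, and it was 0.38 without the 24 h pair. At 1.5 h the 1 member became 0 with averaged probe sets, without _x_at and _s_at probe sets, with dim genes kept and without the trend. MYC had -0.94 there but was not measured without _s_at probe sets. At 24 h the 1 became 0 with averaged probe sets and with dim genes kept. From 1.5 to 24 h the 2 became 1 with averaged probe sets, without _x_at and _s_at probe sets or without the trend, and 0 with dim genes kept. MYC's 0.97 there had an adjusted p of 0.305 with dim genes kept and 0.074 without the trend. With dim genes kept 1 member, MYCN, was called for the siRNA at 24 h against earlier times. Its 1 signal above the floor is fitted exactly, so that call decides nothing. Over the alternatives the adjusted p for the siRNA ran from 3.29e-06 to 0.498 for MYC, 0.00482 to 0.937 for MAX, 3.79e-05 to 0.31 for MXD1, 0.0125 to 0.478 for MXI1 and 0.0332 to 0.651 for MXD3. It ran from 0.00905 to 1 for MYC at 1.5 h and from 0.00143 to 0.21 for MXD1 at 24 h. Genes at the floor on every array have no variance with dim genes kept. The cause was otherwise not tested.

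With dim genes kept no gene of the MYC network lists passed for the siRNA, at 24 h or from 1.5 to 24 h. Over all genes the 961 called for the siRNA became 227 with averaged probe sets, 0 with dim genes kept, 45 without the trend, 578 when 1.5 h was omitted and 235 when 24 h was omitted. The 12 at 1.5 h became 0 with averaged probe sets, with dim genes kept and without the trend, 7 without _x_at and _s_at probe sets and 26 without the siControl 0 h array. The 1793 at 24 h became 806, 1 and 457, and the 1599 from 1.5 to 24 h 736, 1 and 404, with averaged probe sets, dim genes kept and no trend. The 0 for the siRNA at 24 h against earlier times became 4 with the lower floor, 24 with the pseudocount and 639 with dim genes kept. Calls without a pair of arrays or the siControl 0 h array rest on 1 residual degree of freedom, and signals near the floor limit what MXD3 and MYCN can show.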
